A study of Mus musculus with 5 samples.

Results

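The genes described here are regulators of the trophectoderm, the outer epithelium of the mouse blastocyst that forms the placenta, together with X-linked genes expressed in the placenta. They are Cdx2, Eomes, Elf5, Hand1, Gata3, Tfap2c, Plac1, Esx1, Rhox6 and Rhox9, 10 genes of 18193 with a probe set on the arrays. The members were chosen by name, with earlier results of these data known, so their counts beside those of all genes are descriptions. All 16 of their probe sets were read, of 45037 probe sets other than array controls. Every member had at least 1 probe set annotated with its symbol alone.

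The RNA came from mouse embryonic stem cells in which Tet1, a dioxygenase that oxidizes 5-methylcytosine in DNA, had been depleted. J1 stem cells were grown on fibroblast feeders from mouse embryos and taken 4 days after transfection of either a control siRNA or an siRNA directed at Tet1. E14 stem cells were grown without feeders and infected with lentivirus for a scrambled hairpin (Scr shRNA) or for Tet1 shRNA3387 or shRNA2863, with 4 days of puromycin selection before harvest. Each of the 5 groups is 1 array of bulk RNA, so a difference between 2 arrays has no replicate error, and line, feeders and delivery of the RNA differ together between J1 and E14. J1 and E14 are established lines, and the labels name no separate cultures. Values are log2 probe set values as deposited, and a difference is log2 of the depleted array minus the control array of its own line.

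In the early embryo, Tead4 and Yap1 switch on Cdx2 and Gata3 in outer cells, and these factors with Eomes, Elf5 and Tfap2c sustain trophoblast stem cells. Hand1 then drives the formation of giant cells, while Plac1, Esx1 and the Rhox homeobox genes are active in placental trophoblast. Embryonic stem cells rarely enter this lineage, and DNA methylation of the Elf5 promoter is known as part of that barrier. The factors are not restricted to trophoblast: Eomes acts in the primitive streak, Hand1 in mesoderm, Cdx2 in the posterior embryo, and Tfap2c in germ cells and naive stem cells.

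Promoter windows of the 3 members with the most marked differences among those in the RefSeq promoter table are shown, because Tet1 acts on CG dinucleotides. Each is the 250 bases before a RefSeq transcript start on GRCm38.p6, written 5′ to 3′ on the gene's strand with CG dinucleotides in capitals. Plac1, whose difference in J1 was the largest of the members, has 2 starts in the table.
Plac1, distal start, chrX:53240111-53240360, - strand: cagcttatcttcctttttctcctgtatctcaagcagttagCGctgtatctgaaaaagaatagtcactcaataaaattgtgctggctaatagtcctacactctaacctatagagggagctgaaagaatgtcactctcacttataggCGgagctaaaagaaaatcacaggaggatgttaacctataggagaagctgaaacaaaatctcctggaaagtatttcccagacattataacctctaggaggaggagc
Plac1, proximal start, chrX:53114406-53114655, - strand: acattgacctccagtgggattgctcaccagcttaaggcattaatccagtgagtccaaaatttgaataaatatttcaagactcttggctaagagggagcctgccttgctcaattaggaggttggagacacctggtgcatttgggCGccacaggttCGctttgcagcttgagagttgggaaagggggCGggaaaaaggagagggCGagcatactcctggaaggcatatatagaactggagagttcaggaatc
Esx1, chrX:137120327-137120576, - strand: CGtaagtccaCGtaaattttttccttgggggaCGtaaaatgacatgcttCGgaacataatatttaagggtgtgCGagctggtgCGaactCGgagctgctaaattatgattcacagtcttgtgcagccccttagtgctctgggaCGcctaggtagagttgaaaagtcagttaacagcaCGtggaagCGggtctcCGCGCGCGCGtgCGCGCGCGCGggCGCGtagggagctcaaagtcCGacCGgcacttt
Eomes, chr9:118477939-118478188, + strand: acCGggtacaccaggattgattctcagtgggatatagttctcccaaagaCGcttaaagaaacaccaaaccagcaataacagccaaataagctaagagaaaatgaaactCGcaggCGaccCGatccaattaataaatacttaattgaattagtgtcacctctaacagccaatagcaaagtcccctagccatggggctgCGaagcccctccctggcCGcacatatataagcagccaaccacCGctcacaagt

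The Plac1 windows held 2 and 4 CG dinucleotides, the Eomes window 8 and the Esx1 window 24. Over 32851 windows of the same length the median was 6, and 12% had at least as many as Esx1, 43% at least as many as Eomes, and 81.2% and 62.2% at least as many as the Plac1 windows. Among the other members with a window, Cdx2 had 13, Gata3 19 and Elf5 2 and 8, so 6 of the 10 members had at least 1 window. The motif of GATA factors, spelled AGATAA and searched on both strands, occurred once in the distal Plac1 window and in 9.99% of all windows. The palindrome GCCNNNGGC, an AP-2-type motif, occurred in 13.7% of all windows, 3 times before Gata3, once before Cdx2 and in no window of the other 4. Motifs were matched as letters, and no binding or methylation was measured in these samples.

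A gene counted as kept when its brightest probe set lay above the 40th percentile of all probe sets, 3.03 to 3.12 on the 5 arrays, on at least 1 array. By this, 7 members were kept, 6 of them above that level on 5 arrays and Esx1 on 4. Cdx2, Elf5 and Gata3, which specify and maintain trophectoderm, were not kept. The brighter Cdx2 probe set read between 2.65 and 2.74 on the 5 arrays and the other between 1.91 and 1.93. Elf5 read between 2.51 and 2.80, with its second probe set between 2.33 and 2.35, and the only Gata3 probe set read between 2.17 and 2.30. The largest difference of these 3 genes in any depletion was -0.29, for Elf5 with shRNA3387, between values that were all under the filter level. Signal of these genes could therefore not be told from background in any group, and their being unchanged was not shown.

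**Figure D1:**
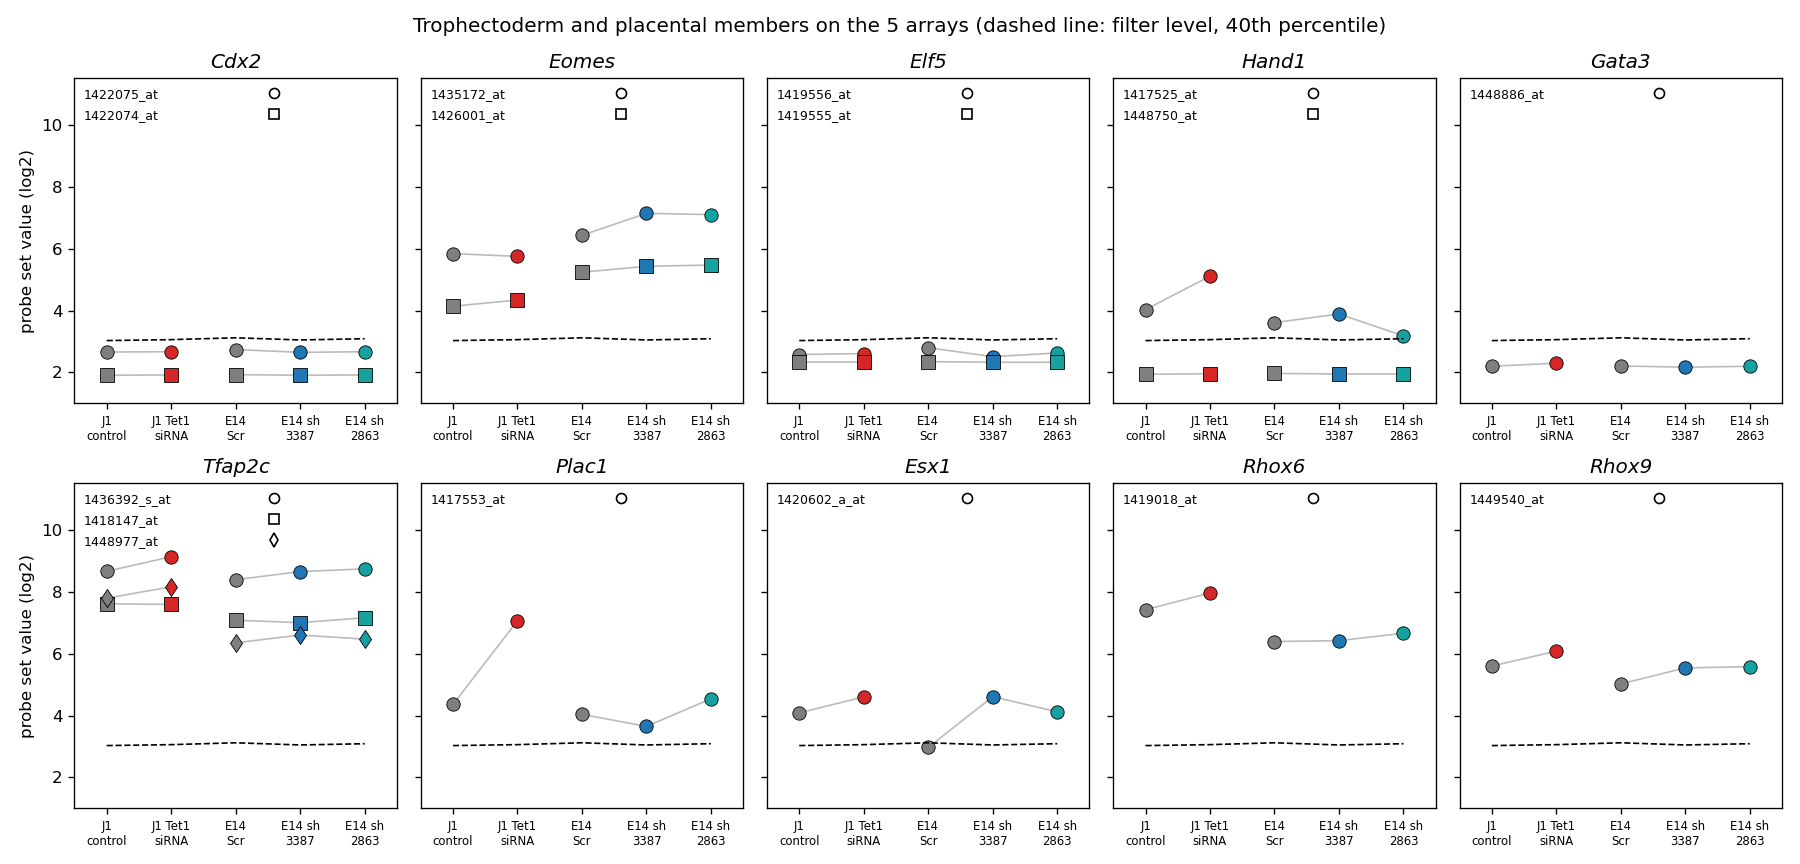
Log2 probe set values (y axis) of the 10 members on the 5 arrays (x axis), 1 symbol shape per probe set, grey for controls and colours for Tet1 depletions; the dashed line is the filter level of each array. Cdx2, Elf5 and Gata3 lie under the line on all 5 arrays, and Plac1 stands at 7.06 with Tet1 siRNA against 3.65 to 4.54 on the other arrays.

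The labelled cell type was borne out by its markers. All 10 stem cell markers, Pou5f1 and Nanog among them, were above the filter on the 5 arrays, with values between 7.70 and 13.20. Tet1 differed by -2.54 in J1 cells, -1.71 with shRNA3387 and -0.89 with shRNA2863, lower on each array labelled as depleted. Of 8 defining markers of differentiated trophoblast, 2 had a probe set with 1 symbol. Tpbpa, a spongiotrophoblast marker, read 3.0 to 3.18 and the placental protease Ctsq 2.27 to 2.31 over the 5 arrays, so Tpbpa lay at most 0.06 above the filter level of an array and Ctsq under it. Of 10 feeder markers, 7 to 8 were above the filter on each array, in feeder-free E14 cells too, with mean values of 4.87 and 4.78 in J1 and 4.39 to 4.77 in E14. The collagen gene Col1a2 stood apart, at 6.24 and 5.95 in J1 against 3.59 to 3.62 in E14; its part in the line differences of the members was not tested.

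Plac1, a membrane protein of the trophoblast, had the largest response among the members, past 2-fold in J1 and not in E14. In J1 its control array read 4.36 and its depleted array 7.06, a difference of 2.70. In E14 the scramble read 4.04, shRNA3387 3.65 and shRNA2863 4.54, so 1 hairpin array lay below the scramble and the other above it. The hairpins thus differed from each other by -0.89, more than either differed from the scramble. In bulk RNA, more cells with the transcript and more transcript per cell cannot be told apart.

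Hand1, the basic helix-loop-helix factor of giant cells, was the second member past 2-fold in J1. The J1 control read 4.03 and the depleted array 5.11, a 2.11-fold difference, and in E14 cells 3.61, 3.89 and 3.18 with Scr, shRNA3387 and shRNA2863. The E14 values straddled the scramble, and the shRNA2863 array lay close to the filter level of 3.09. The second Hand1 probe set read 1.94 to 1.97 throughout and gave no second reading of the gene. With the median over both probe sets the J1 difference was 0.55, which left Plac1 as the single member past 2-fold in J1.

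At least 2-fold higher with Tet1 siRNA in J1 were thus 2 of the 7 kept members, where 64 of all 13619 kept genes were, or 0.47%. None of the 7 was at least 2-fold lower, where 1.1% of all genes were. The median difference of the 7 was 0.51, with 6 higher and 1 lower, and that of all kept genes was -0.01. On the same array the 10 stem cell markers had a median difference of -0.51, and all 10 were lower, led by Esrrb (-1.21). Whether that shift and the members' differences share a source was not tested.

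The member homeobox genes of the X chromosome are Esx1, Rhox6 and Rhox9, and their differences were uneven between depletions except for Rhox9. Esx1, which acts in labyrinth trophoblast, was the only member past 2-fold in E14. It read 4.09 and 4.60 in J1 with control and Tet1 siRNA, and 2.97, 4.61 and 4.12 in E14 with Scr, shRNA3387 and shRNA2863. The scramble array was the only one under its filter level of 3.12, and both hairpin arrays were near the J1 values. The differences of 1.64 and 1.15 share that low scramble reading; measured from the filter level instead, Esx1 was at least 2.81-fold higher with shRNA3387 and at least 2.0-fold higher with shRNA2863.

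Rhox9 had nearly the same difference in the 3 depletions. Its values were 5.60 and 6.08 in J1 and 5.02, 5.54 and 5.58 in E14, which gave differences of 0.48, 0.52 and 0.56. Each depleted array was above its own control, by less than 2-fold. Rhox6, of the same Rhox cluster, read 7.42 and 7.96 in J1 and 6.39, 6.42 and 6.66 in E14. Its differences were 0.54, 0.03 and 0.27, and the smallest of them turned to -0.12 after quantile normalization. The other Rhox genes on the arrays, Rhox5 and Rhox13, differed by -0.01 and 0.03 in J1. With shRNA3387 they differed by 0.34 and -0.07, and with shRNA2863 by 0.44 and 1.08.

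Eomes, the T-box factor of trophoblast stem cells and the primitive streak, was higher with both hairpins in E14. Its brighter probe set read 5.84 and 5.75 in J1 with control and Tet1 siRNA, and 6.43, 7.14 and 7.10 in E14 with Scr, shRNA3387 and shRNA2863. The other read 4.14 and 4.34, then 5.24, 5.43 and 5.47. Both hairpin arrays exceeded the scramble in each probe set, by 0.71 and 0.67 in the brighter and by 0.19 and 0.23 in the other, while the probe sets disagreed in sign in J1 (-0.09 and 0.20). None of 10 kept primitive streak and mesoderm genes reached 2-fold in a depletion, and their medians were 0.03 in J1, -0.14 with shRNA3387 and -0.01 with shRNA2863. Of all kept genes, 0.47% to 1.15% were at least 2-fold higher in a depletion and 0.609% to 1.1% at least 2-fold lower.

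Tfap2c, the AP-2 gamma factor, was well above the filter on all arrays. Its brightest probe set read 8.66 and 9.13 in J1 and 8.39, 8.65 and 8.74 in E14, differences of 0.47, 0.26 and 0.35. The suffix of that probe set, 1436392_s_at, marks probes that may match other transcripts. Probe set 1448977_at gave 0.37, 0.25 and 0.12, and 1418147_at gave -0.02, -0.08 and 0.08. The 3 probe sets thus did not give 1 answer for Tfap2c in J1 or with shRNA3387.

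**Figure D2:**
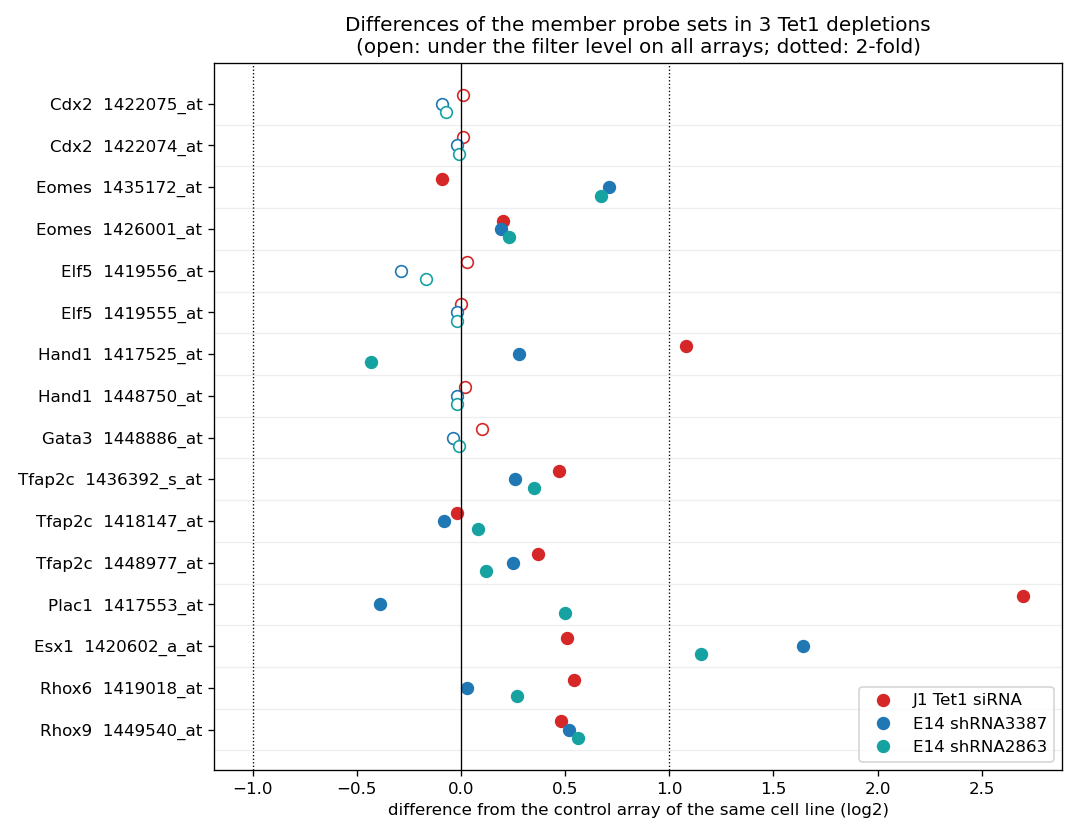
Log2 difference from the control array of the same line (x axis) for the 16 member probe sets (y axis) in 3 Tet1 depletions; open symbols are probe sets under the filter level on all arrays and dotted lines mark 2-fold. Plac1 and Hand1 pass 2-fold in J1 and Esx1 passes it with both hairpins, while no probe set is 2-fold lower.

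With each hairpin, 1 of the 7 kept members was at least 2-fold higher, Esx1 in both cases. Over all kept genes 1.15% were at least 2-fold higher with shRNA3387 and 0.587% with shRNA2863. No kept member was at least 2-fold lower with either, where 0.653% and 0.609% of all genes were. The members' median differences were 0.28 and 0.50, beside -0.02 and -0.01 for all kept genes. Both hairpins share the scramble array, so these readings are not independent.

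No member passed the limma test for a Tet1 effect over both systems, which compares 3 depleted with 2 control arrays. Neither did Tet1 itself, the target of the depletions (-1.83 ± 0.43 SE, limma adjusted p = 0.7). The lowest adjusted p over all genes was 0.7, so the lack of a call does not show that a member was unchanged. Of 13619 genes 0% were called, and 936 (6.87%) had an unadjusted p under 0.05, among them Rhox9, Tfap2c and Esx1. Rhox9 differed by 0.51 ± 0.09 (SE; unadjusted p = 0.00519), Tfap2c by 0.38 ± 0.10 (unadjusted p = 0.019) and Esx1 by 1.02 ± 0.29 (unadjusted p = 0.0264), each higher on 3 of 3 depleted arrays, with limma adjusted p of 0.7, 0.7 and 0.701. For Tfap2c this holds for the brightest probe set: with the median over its probe sets the effect was 0.16 (adjusted p = 0.774), and 1418147_at was lower on 2 of 3 depleted arrays. The error of Plac1 was wider than that of any other member, 1.19 ± 0.74 (SE; limma adjusted p = 0.721), since its depletions disagreed.

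The effect in E14 alone and the difference of the effects between the lines were also tested in limma, where the only spread is that between the hairpin arrays. Again 0% of genes were called in either, with 1500 and 1888 genes at an unadjusted p under 0.05. In E14, Eomes differed by 0.69 ± 0.09 (SE; limma adjusted p = 0.365), Rhox9 by 0.54 ± 0.08 (adjusted p = 0.385) and Esx1 by 1.39 ± 0.29 (adjusted p = 0.417), higher with both hairpins. The E14 effect exceeded the J1 effect by 0.78 ± 0.14 (SE) for Eomes (limma adjusted p = 0.344). For Plac1 it was lower by a difference of -2.65 ± 0.80 (adjusted p = 0.388), and for Hand1 by -1.16 ± 0.64 (adjusted p = 0.533). A line-specific response of a member was therefore not established by these tests. Tet1 itself was not called in E14 either (-1.3 ± 0.48 SE), so these tests could not show a member to be unchanged.

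Levels of the members were also compared between the lines. With the Tet1 term in the same limma fit, the 3 E14 arrays were lower than the 2 J1 arrays for Rhox6 (-1.25 ± 0.16 SE, adjusted p = 0.0274) and Rhox9 (-0.55 ± 0.09, adjusted p = 0.0388). For Rhox6 the 2 J1 arrays were both above the 3 E14 arrays. For Rhox9 the J1 control at 5.60 was barely above shRNA2863 at 5.58. These are 2 of 7 kept members, where 14.2% of all genes were called, and with any 1 array left out limma called 0 of all genes. Rhox9 was also not called after quantile normalization (adjusted p = 0.0789) or without the filter (adjusted p = 0.0582).

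Of their cluster neighbours, Rhox5, also known as Pem, read 10.73 and 10.72 in J1 and 8.55, 8.89 and 8.99 in E14, and it passed the same limma test (-1.95 ± 0.13 SE, adjusted p = 0.0167). Rhox13 read 2.96 and 2.99 in J1, under the filter, and 4.95, 4.88 and 6.03 in E14. It was kept through its E14 values, so this is a description with no test. Eomes was the kept member with a higher level in E14 (1.04 ± 0.22 SE, adjusted p = 0.0617), with all 3 E14 arrays above both J1 arrays in each probe set. It passed at 0.0326 after quantile normalization, at 0.0351 with a filter at the 60th percentile and at 0.0203 with the median over probe sets. Eomes did not pass with median centring (limma adjusted p = 0.0761), without the filter (0.0724) or without the trended prior variance (0.0609).

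Hand1 (-1.08 ± 0.38 SE), Plac1 (-1.83 ± 0.74), Esx1 (-0.61 ± 0.29) and Tfap2c (-0.36 ± 0.10) did not pass, with limma adjusted p from 0.0891 to 0.248. The Plac1 estimate was -0.32 without the J1 Tet1 siRNA array, -2.96 without the J1 control and -2.97 without the E14 scramble array. The Hand1 estimate was -0.42, -1.57 and -1.58 without the same arrays. Between the control arrays alone, Rhox6 was 2.04-fold lower in E14. Esx1 read 4.09 in J1 and 2.97 in E14, under the filter level; measured from that level it was at least 1.96-fold lower. As read, 2 of 7 members were past 2-fold in this direction, and 1 with Esx1 held at the filter level, where 4.84% of all genes were. None of the 7 was at least 2-fold higher, where 3.52% were. Tfap2c probe set 1448977_at read 7.79 and 8.16 in J1 against 6.35 to 6.60 in E14, a wider gap than its brightest probe set showed, and with the median over its probe sets Tfap2c passed limma (-0.92, adjusted p = 0.029). Line, feeders and delivery cannot be told apart here.

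**Figure D3:**
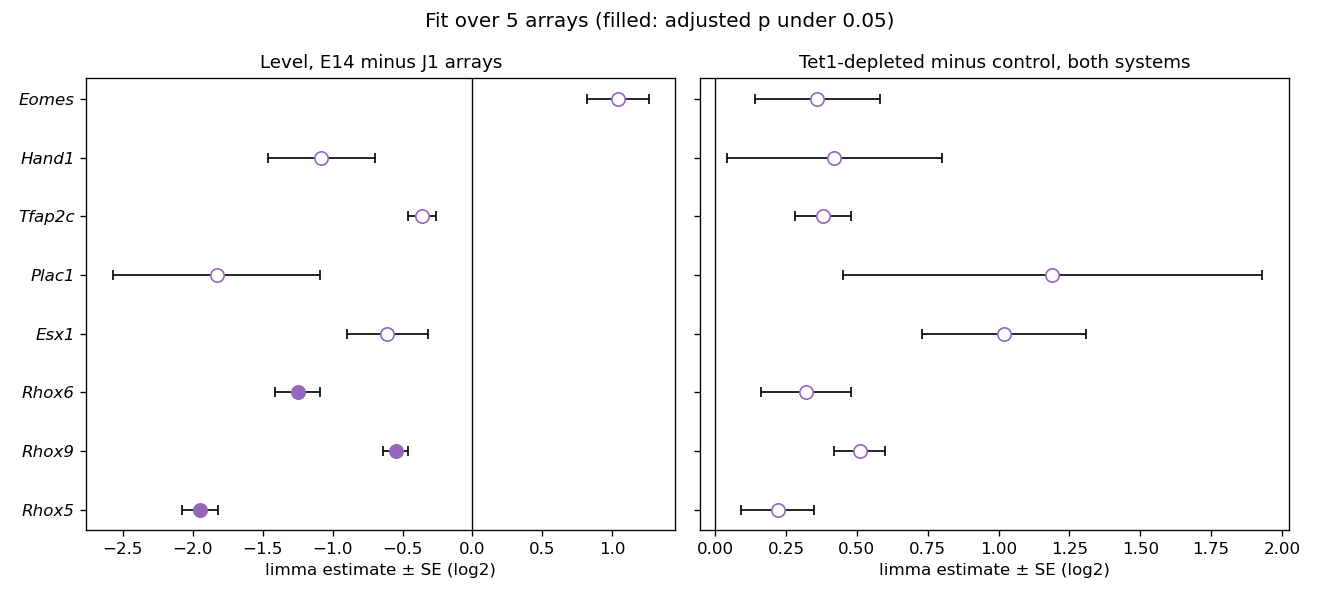
Limma estimates ± SE (x axis, log2) for the 7 kept members and for Rhox5 from the fit over 5 arrays, for the level in E14 minus J1 (left) and for Tet1-depleted minus control (right); filled symbols have an adjusted p under 0.05. Rhox6, Rhox9 and Rhox5 are lower in E14 with filled symbols, and no Tet1 estimate is filled.

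Other trophectoderm and placental genes were read from a list of 36, of which 28 were on the arrays with a symbol of their own and 27 were kept. In J1, 16 of the 27 were higher with Tet1 siRNA and 9 lower, with a median of 0.16, beside 6198 higher and 6865 lower of all kept genes. At least 2-fold higher were 2 of them, where 0.47% of all kept genes were. Cited1, a transcriptional coactivator of trophoblast, read 3.78 and 5.90, and Ascl2, a maternally expressed factor of the spongiotrophoblast, read 5.04 and 6.13. In E14 cells Cited1 read 2.42, 2.37 and 3.17, and Ascl2 3.71, 3.49 and 3.79, so neither differed by 2-fold with a hairpin. Cited1 was under the filter level with Scr and shRNA3387 and close to it with shRNA2863, so its being unchanged in E14 was not shown. None of the list was 2-fold lower in J1, where 1.1% of all kept genes were.

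Below 2-fold in J1, the largest differences were those of the GATA factor Gata2 (0.81), Sox15 (0.62), a factor of giant cell differentiation, the imprinted genes Peg10 (0.73) and Phlda2 (0.65), the keratins Krt18 (0.71) and Krt7 (0.46), and, lower, Plac8 (-0.78) and the AP-2 factor Tfap2a (-0.46). With shRNA3387, 4 were higher and 23 lower, with a median of -0.10, beside 5682 higher and 7756 lower of all kept genes with a median of -0.02; Igf2 (-1.29), the imprinted growth factor, and Sox15 (-1.04) were at least 2-fold lower, 2 of 27 where 0.653% of all genes were. With shRNA2863, 12 were higher and 13 lower, with a median of 0.00 and none past 2-fold, beside 5700 higher and 7502 lower of all kept genes. Of all kept genes 0.587% were at least 2-fold higher with that hairpin and 0.609% at least 2-fold lower. The difference between J1 and the hairpins was not tested for the list. No gene of the list passed limma for a Tet1 effect, and neither did Tet1 or any other of the 13619 kept genes. The lack of a call thus does not show that genes of the list were unchanged.

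**Figure D4:**
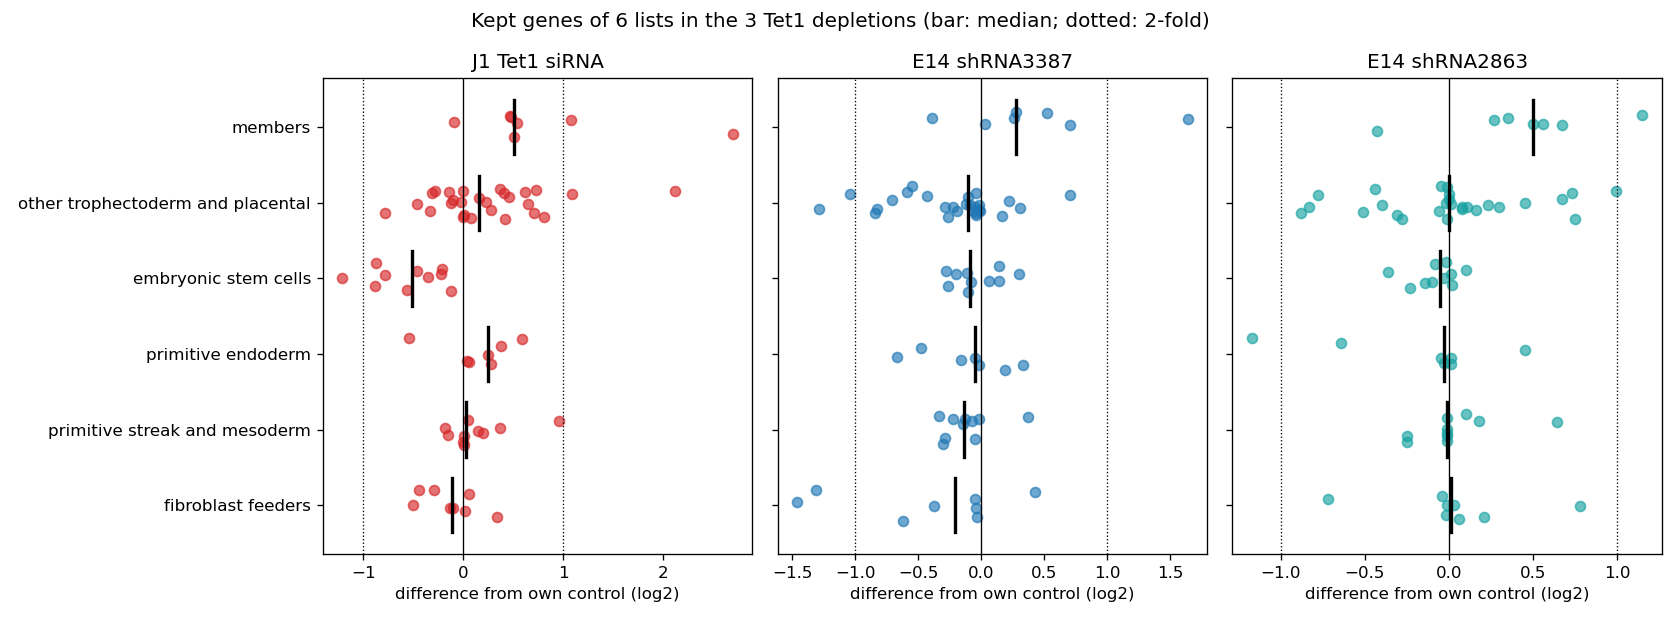
Log2 differences from the control array of the same line (x axis) for the kept genes of 6 lists (y axis) in each Tet1 depletion; every point is a gene, bars are medians and dotted lines mark 2-fold. In J1 the members' median is 0.51 and that of the stem cell markers -0.51, and with both hairpins the stem cell medians lie between -0.09 and -0.05.

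Beside the J1 differences, 6 of 7 kept primitive endoderm markers were higher with Tet1 siRNA, with a median of 0.25 and none past 2-fold. Of all kept genes 0.47% were at least 2-fold higher there and 1.1% at least 2-fold lower. Of 8 kept feeder markers, 3 were higher and 5 lower, with a median of -0.11. Among these lists the members' J1 differences were thus accompanied by lower stem cell markers and by smaller differences of the other lineage lists. With the hairpins the primitive endoderm medians were -0.05 and -0.03. Their part in the members' results was not tested.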

How the data were processed

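Biotin-labelled RNA of 5 samples was measured on 5 Affymetrix arrays, per the labels. The deposited table gives 1 value per probe set, taken as log2 from the range of the values; how the authors summarised, corrected and normalized these log2 values is not given in the sources used here, and they were used as deposited. Names came from the platform annotation: 34945 probe sets with 1 symbol, 932 with several and 9160 with none, 34741 of the first matched to RefSeq (GRCm38.p6) by Entrez identifier. The probe set with the highest mean stood for a gene. Of 18193 genes, 13619 were kept.

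Groups came from the labels. A difference between 2 arrays was described only, and counted when past 2-fold. Limma (version 3.58.1, with R version 4.3.3) was fitted with a trended prior variance across all kept genes, two-sided, with Benjamini-Hochberg adjustment and a threshold of 0.05: a system and a Tet1 term (2 residual degrees of freedom), and 4 means (1 residual degree of freedom). These p-values reflect the spread among 5 arrays alone, which may be technical, and precision is limited by that number. The fits were also run on simulated data with independent noise, where only the mean estimates had to match the set effects. That run was not a test of the p-values of these arrays. The members and lists were chosen with earlier results of these data known. All members, Tet1, Rhox genes, list genes past 2-fold or with the largest J1 differences, and the 3 genes with the profile nearest to each varying member were named. Alternatives were other scalings, filters, gene summaries, fold thresholds and models, and leaving out each array.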

Additional observations from a re-analysis of the deposited data

Results flagged for a closer look

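Among the kept members and the other placental genes named by the rule, some had opposite signs in J1 and with both E14 hairpins. They were Eomes, Sox15, Igf2, Gata2 and Peg10. The share of all kept genes with such signs was not counted, so their number is not read as a result. No least size was set: Eomes in J1 (-0.09) and Gata2 with shRNA2863 were within the spread between the hairpin arrays (SD 0.2 per array). The estimates below are for genes picked by these same signs. The difference of effects, E14 minus J1, was 0.78 ± 0.14 (SE) for Eomes, whose second probe set was higher in all 3 depletions. It was -1.58 ± 0.18 for Sox15 (0.62 in J1, -1.04 with shRNA3387 and -0.88 with shRNA2863) and -1.57 ± 0.11 for Peg10 (0.73, -0.84 and -0.83). For Igf2 it was -1.32 ± 0.71 (0.42, -1.29 and -0.51), and for Gata2 -1.10 ± 0.49 (0.81, -0.55 and -0.02). Limma called none of these differences, with adjusted p from 0.332 to 0.525. Both hairpins share 1 scramble array.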

How the results depend on the processing

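The count of members past 2-fold in J1 fell from 2 to 1 with the median over probe sets, where Hand1 differed by 0.55. Past 1.5-fold, 2 members were higher with shRNA3387 and 2 with shRNA2863, in place of 1 each past 2-fold. Of 13619 kept genes, 734 and 494 were at least 1.5-fold higher with these hairpins. Between the control arrays the count went from 2 to 1 after quantile normalization. The number of members called for a level difference between the lines was 2, and it was 1 without the filter, 3 with the filter at the 60th percentile, 4 with the median over probe sets, and 0 in each fit that left out 1 array, which has 1 residual degree of freedom. After quantile normalization it was again 2, with Eomes called and Rhox9 not. The calls over all genes moved with the setting too, from 1930 of 13619 in the main fit. They were 1613 of 18193 without the filter and 2598 of 10387 with the filter at the 60th percentile. With the median over probe sets they were 2191 of 12491, and after quantile normalization 2387 of 13619. The cause of the other changes was not tested. No member was called for a Tet1 effect over both systems, in E14, or for its difference between systems under any alternative run. The members' median lay between 0.47 and 0.53 in J1 and between 0.10 and 0.35 over the hairpins. Of 407 values of single genes under the alternatives, 8 changed sign and 0 of these had been past a threshold. The median difference over all kept genes was at most 0.05 in size in each comparison and setting. Signal near the filter level limits Esx1 on the scramble array, and the absence of replicates limits all differences between single arrays. No paired analysis was possible because each group holds 1 array.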

Other observations

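For each kept member whose values ranged over at least 1 log2 unit, the genes nearest to its profile were found by Euclidean distance over the 5 arrays after centring, a description with no test. Nearest to Plac1 were Nox4 (distance 0.62), which read 3.83 and 5.94 in J1 and 3.14, 2.97 and 3.25 in E14, Cited1 (0.77) and Dusp18 (0.90). Dusp18 was under the filter level on every array except J1 Tet1 siRNA, where it read 4.87. Cited1 was under it with Scr and shRNA3387, and Nox4 with shRNA3387. These likenesses to Plac1 thus rest mostly on the J1 Tet1 siRNA array. Nearest to Esx1 were Sema3e (0.22), which read 7.40 and 7.83 in J1 and 6.25, 7.71 and 7.19 in E14, Plpp5 (0.30) and Adgrl2 (0.43). Eomes was nearest to Antxr1 (0.14), 4930447C04Rik (0.19) and Zfp462 (0.20), and Hand1 to Zfp934 (0.32), the claudin Cldn6 (0.33) and Gadd45g (0.38). Rhox6 lay nearest to Elovl1 (0.09), Susd4 (0.10) and Pcgf5 (0.13), and Rhox9 to Eogt, Irf2bp2 and Aif1l (each 0.14).

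Of the 27 kept genes of the list of other trophectoderm and placental genes, 10 were at least 2-fold lower in the E14 than in the J1 control and 1 at least 2-fold higher, where 4.84% and 3.52% of all kept genes were. Krt7, a keratin of simple epithelia and trophoblast, read 7.29 in J1 control and 3.81 in E14 scramble cells, 11.2-fold lower, and Igf2 read 9.21 and 7.22. Krt7 was 4.80 with shRNA2863, 1.99-fold above the scramble, and 3.69 with shRNA3387.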
